A study of Mus musculus with 12 samples.

Results

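H3K14ac, the acetylation of lysine 14 on histone H3, was examined at 8 genes used as markers of embryonic neural stem and progenitor cells: Nes, Vim, Msi1, Msi2, Prom1, Fabp7, Nr2e1 and Hmga2. They were picked by gene symbol out of the 27095 genes counted, and all 8 were present in both count tables and in all 12 libraries. The data are counts of ChIP-seq reads (chromatin immunoprecipitation followed by sequencing) in the first 1000 bases from the transcription start site (the TSS window), and over the whole gene.

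The cells were neural stem and progenitor cells from the cortices and ganglionic eminences of mouse foetuses at E14.5. Differentiating cells had been dissociated and put on a laminin coating in cortical neuron medium, and proliferating cells grew as neurospheres, which are floating clusters of dividing cells. The groups were wild-type (WT) H3K14ac ChIP from differentiating cells (3 libraries) and from proliferating cells (3 libraries), and, with 1 library at each stage, H3K14ac ChIP from Hbo1 null cells, IgG pull-down and input. Hbo1 is the protein of Kat7, an acetyltransferase for this lysine. The design text calls the Kat7/Hbo1 deleted cells a negative control said to lack the mark, and the labels used here do not give the deletion allele or what drove it. IgG is a non-specific antibody, and input is chromatin sequenced without pull-down. The labels name each input after WT replicate 1 of its stage, and it is used here as the control for all 3 replicates. The ChIP used the Abcam antibody ab52946. The cultures mix cells of cortex and ganglionic eminence, and the labels give no time in the differentiation medium. The labels do not say whether replicate numbers stand for separate cultures or foetuses, so p-values measure only how far these libraries differ, and that spread may be technical.

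H3K14ac is found mainly around the start sites of genes that are active or ready to be transcribed, and Hbo1, as part of complexes with scaffold proteins, is one of the enzymes that place it. Neural stem cells of the embryonic forebrain, the radial glia, carry intermediate filaments of nestin and vimentin, the RNA-binding Musashi proteins, the membrane protein prominin-1, the fatty acid carrier of radial glia and a set of nuclear regulators of self-renewal. When these cells give rise to neurons, the proteins of most of these genes become scarce, while several of them remain in astrocytes or in adult stem cells.

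By role, the 8 genes fall into 4 pairs. Nes (gene ID 18008) encodes nestin and Vim (22352) vimentin, the intermediate filament proteins of radial glia. Msi1 (17690) and Msi2 (76626) encode Musashi proteins, which bind messenger RNA and control its translation. Prom1 (19126) encodes the cholesterol-binding membrane glycoprotein prominin-1, also known as CD133, and Fabp7 (12140) the brain lipid-binding protein, a carrier of fatty acids in radial glia. Nr2e1 (21907) encodes the orphan nuclear receptor TLX, a transcriptional repressor needed for self-renewal of neural stem cells, and Hmga2 (15364) an architectural chromatin protein that is high in foetal stem cells and a target of let-7 microRNAs.

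In RefSeq for GRCm38.p6, the build called mm10 in the submitters' processing notes, Nes lies on chromosome 3 at 87971093 to 87980451 and Vim on chromosome 2 at 13574311 to 13582826. Msi2 covers 88339382 to 88718306 of chromosome 11, and Prom1 43993621 to 44102047 of chromosome 5. Fabp7 (57784923 to 57788450), Nr2e1 (42561963 to 42583590) and Hmga2 (120361268 to 120476469) all lie on chromosome 10. For Nes, Vim and Fabp7 the gene length in the count table equals that of RefSeq, which puts their windows at 87971093 to 87972092, 13574311 to 13575310 and 57784923 to 57785922. Msi1 spans 115359059 to 115455698 (96640 bases) on chromosome 5 in RefSeq but has 24518 bases in the count table, so its window cannot be placed with these coordinates. Other RefSeq genes overlap Msi1 (2 genes), Msi2 (3 genes) and Hmga2 (5 genes), and how reads in shared stretches were assigned is not given in the sources used here.

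The promoters of 5 of the genes are shown. Nes was the member called between stages, Vim and Fabp7 are the other genes whose windows can be placed, and Msi2 and Hmga2 are members that did not pass over input, with very different base composition. Each sequence is taken from RefSeq (GRCm38.p6), runs 5′ to 3′ on the gene's strand from 250 bases before the start to 50 bases after it, and has CG dinucleotides in capitals. They are chr3:87970843-87971142 (+) for Nes, chr2:13574061-13574360 (+) for Vim, chr11:88718228-88718527 (-) for the first of 3 listed Msi2 starts, chr10:57784673-57784972 (+) for Fabp7 and chr10:120476420-120476719 (-) for Hmga2.
Nes: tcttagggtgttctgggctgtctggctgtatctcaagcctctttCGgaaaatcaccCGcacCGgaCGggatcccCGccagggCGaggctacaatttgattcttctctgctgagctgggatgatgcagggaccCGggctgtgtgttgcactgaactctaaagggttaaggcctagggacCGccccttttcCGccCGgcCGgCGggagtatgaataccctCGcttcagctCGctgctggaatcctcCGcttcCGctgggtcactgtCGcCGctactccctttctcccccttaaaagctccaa
Vim: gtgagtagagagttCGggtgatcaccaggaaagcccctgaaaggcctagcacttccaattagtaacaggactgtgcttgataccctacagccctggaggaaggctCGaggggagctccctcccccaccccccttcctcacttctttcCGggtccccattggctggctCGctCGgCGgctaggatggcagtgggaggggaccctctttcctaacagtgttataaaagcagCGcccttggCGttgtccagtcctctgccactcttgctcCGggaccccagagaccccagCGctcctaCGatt
Msi2: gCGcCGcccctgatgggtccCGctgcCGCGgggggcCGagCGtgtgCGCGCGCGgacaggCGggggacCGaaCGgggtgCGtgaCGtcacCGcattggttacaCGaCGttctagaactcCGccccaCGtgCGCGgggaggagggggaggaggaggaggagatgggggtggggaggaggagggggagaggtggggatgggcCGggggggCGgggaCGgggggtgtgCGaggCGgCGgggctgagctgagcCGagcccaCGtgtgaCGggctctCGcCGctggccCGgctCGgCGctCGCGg
Fabp7: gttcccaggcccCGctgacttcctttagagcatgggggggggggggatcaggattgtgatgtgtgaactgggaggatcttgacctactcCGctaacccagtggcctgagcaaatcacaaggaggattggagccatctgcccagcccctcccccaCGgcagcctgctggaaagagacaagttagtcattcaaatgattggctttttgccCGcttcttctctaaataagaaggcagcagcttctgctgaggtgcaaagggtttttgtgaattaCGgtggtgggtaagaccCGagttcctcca
Hmga2: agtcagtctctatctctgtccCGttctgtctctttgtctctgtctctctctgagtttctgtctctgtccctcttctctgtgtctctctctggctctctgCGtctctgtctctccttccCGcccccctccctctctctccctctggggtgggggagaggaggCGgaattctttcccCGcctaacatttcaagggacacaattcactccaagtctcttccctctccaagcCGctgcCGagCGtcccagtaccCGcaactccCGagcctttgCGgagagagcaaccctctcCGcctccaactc

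For Nes, Vim and Fabp7 the last 50 of these bases lie inside the counted window and the first 250 lie outside it. The Msi2 promoter held 39 CG dinucleotides in its 300 bases, and 95.7% of the 27025 promoters in the table held fewer. Nr2e1 held 19, Nes 18, Hmga2 12, Vim 11, Prom1 10 and Fabp7 6, against a median of 7 over all promoters. Each motif given here was searched on both strands, no match overlapped another, and a match describes the letters only. The CCAAT motif was found at Vim (2 matches), Fabp7 (2), Msi2 (1) and Prom1 (1), and in 37.9% of all promoters. TATAAA was found at Vim alone (1 match), and in 14.2% of all promoters. The GC box letters GGGCGG were found at Msi2 (3 matches), Nes (2), Prom1 (1) and Hmga2 (1), and in 35.9% of all promoters. The table matched 7 of the 8 members, and Msi1 is named only.

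Depth sets how far each of these genes can be read. Gene body counts summed to 12549913 to 17074249 in differentiating and 3992697 to 7611239 in proliferating WT libraries, to 12689734 and 11871306 in the differentiating and proliferating inputs, to 2771713 and 2526252 in the IgG libraries of these stages and to 320601 and 64071 in the Hbo1 null libraries of these stages. Levels below are counts scaled to 1000000 gene body counts (CPM), and intervals around single values are exact Poisson intervals at 95% that cover counting error only. A single member's window held 7 to 41 counts in the WT libraries, so counting error alone is large. TSS windows held 3.24% to 3.68% of gene body counts in differentiating and 4.56% to 4.90% in proliferating WT libraries, against 3.23% and 3.36% in the differentiating and proliferating inputs. Summed over 5 Y chromosome genes, body counts stood at 209 CPM in differentiating WT replicate 3 and 47.1 CPM in proliferating WT replicate 1, against 8.77 to 9.94 CPM in the other 4 WT libraries. The differentiating and proliferating IgG libraries stood at 228 and 187 CPM, against 7.80 and 6.57 CPM in the inputs of these stages. The differentiating and proliferating Hbo1 null libraries stood at 143 and 46.8 CPM, the latter being the level of 3 counts at its depth. The IgG and Hbo1 null libraries thus differ from the inputs and most WT libraries in Y content. The members are autosomal, and what these differences mean for the comparisons with IgG and with null cells was not tested. Kat7 had 0 counts in its window in both Hbo1 null libraries, and its gene body had 34.3 CPM (11 counts) in the differentiating and 62.4 CPM (4 counts) in the proliferating one, against 26.9 to 37.9 CPM in the WT libraries. These counts do not show which part of Kat7 was deleted.

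H3K14ac counts at the filament genes' windows were lower in differentiating than in proliferating libraries. Nes had 1.59, 1.41 and 1.64 CPM in differentiating libraries, against 3.96, 5.26 and 5.12 CPM in proliferating libraries, 0.867 and 1.01 CPM in the differentiating and proliferating inputs, and 0.722 and 3.17 CPM in the IgG libraries of the same stages. Vim had 1.91, 1.96 and 0.703 CPM in differentiating libraries, against 2.64, 2.51 and 3.81 CPM in proliferating libraries, 0.394 and 0.927 CPM in the differentiating and proliferating inputs, and 1.08 and 2.38 CPM in the IgG libraries of the same stages. At both genes every differentiating library lay below every proliferating one on this scale. Within the differentiating group the Nes values were close together, and Vim in replicate 3 was well below the other two. Input and IgG values of both genes were also lower in differentiating than in proliferating cells, with 1 library at each stage. The stage difference beyond these controls, given below, passed for neither gene. Even for a fall in the mark itself, fewer cells with it and less of it per cell cannot be told apart in such bulk samples.

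The Musashi windows overlapped between stages. Msi1 had 2.15, 1.10 and 2.05 CPM in differentiating libraries, against 1.76, 4.01 and 4.47 CPM in proliferating libraries, 0.709 and 0.758 CPM in the differentiating and proliferating inputs, and 0.361 and 0.792 CPM in the IgG libraries of the same stages. Msi2 had 2.23, 1.10 and 1.17 CPM in differentiating libraries, against 1.76, 3.76 and 2.63 CPM in proliferating libraries, 1.42 and 1.35 CPM in the differentiating and proliferating inputs, and 0.361 and 0 CPM in the IgG libraries of the same stages. For both genes proliferating replicate 1 fell within the range of the differentiating libraries. At the depth of the proliferating IgG library the 0 counts of Msi2 allow up to 1.19 CPM (3 counts).

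At the membrane and lipid carrier genes the WT groups did not overlap. Prom1 had 1.67, 1.33 and 1.64 CPM in differentiating libraries, against 1.98, 2.25 and 2.23 CPM in proliferating libraries, 1.10 and 1.01 CPM in the differentiating and proliferating inputs, and 1.44 and 1.19 CPM in the IgG libraries of the same stages. Fabp7 had 3.03, 2.35 and 2.40 CPM in differentiating libraries, against 3.08, 5.01 and 4.73 CPM in proliferating libraries, 1.42 and 1.52 CPM in the differentiating and proliferating inputs, and 1.08 and 0.792 CPM in the IgG libraries of the same stages. The gap between the groups was small for both, and for Fabp7 the highest differentiating and lowest proliferating libraries were nearly equal.

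The nuclear factors had separate WT groups as well, at different heights. Nr2e1 had 2.79, 1.57 and 1.70 CPM in differentiating libraries, against 3.52, 5.51 and 5.12 CPM in proliferating libraries, 0.788 and 1.77 CPM in the differentiating and proliferating inputs, and 0.722 and 2.77 CPM in the IgG libraries of the same stages. Hmga2 had 1.04, 0.782 and 0.703 CPM in differentiating libraries, against 1.54, 1.75 and 2.50 CPM in proliferating libraries, 1.26 and 1.10 CPM in the differentiating and proliferating inputs, and 0.722 and 1.19 CPM in the IgG libraries of the same stages. In differentiating cells Hmga2 lay below its input in all 3 libraries, which none of the other members did. On this scale 6 of the 8 members (all but Msi1 and Msi2) had every differentiating library below every proliferating one. The same held for 33.7% of all 19477 windows tested between stages.

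**Figure D1:**
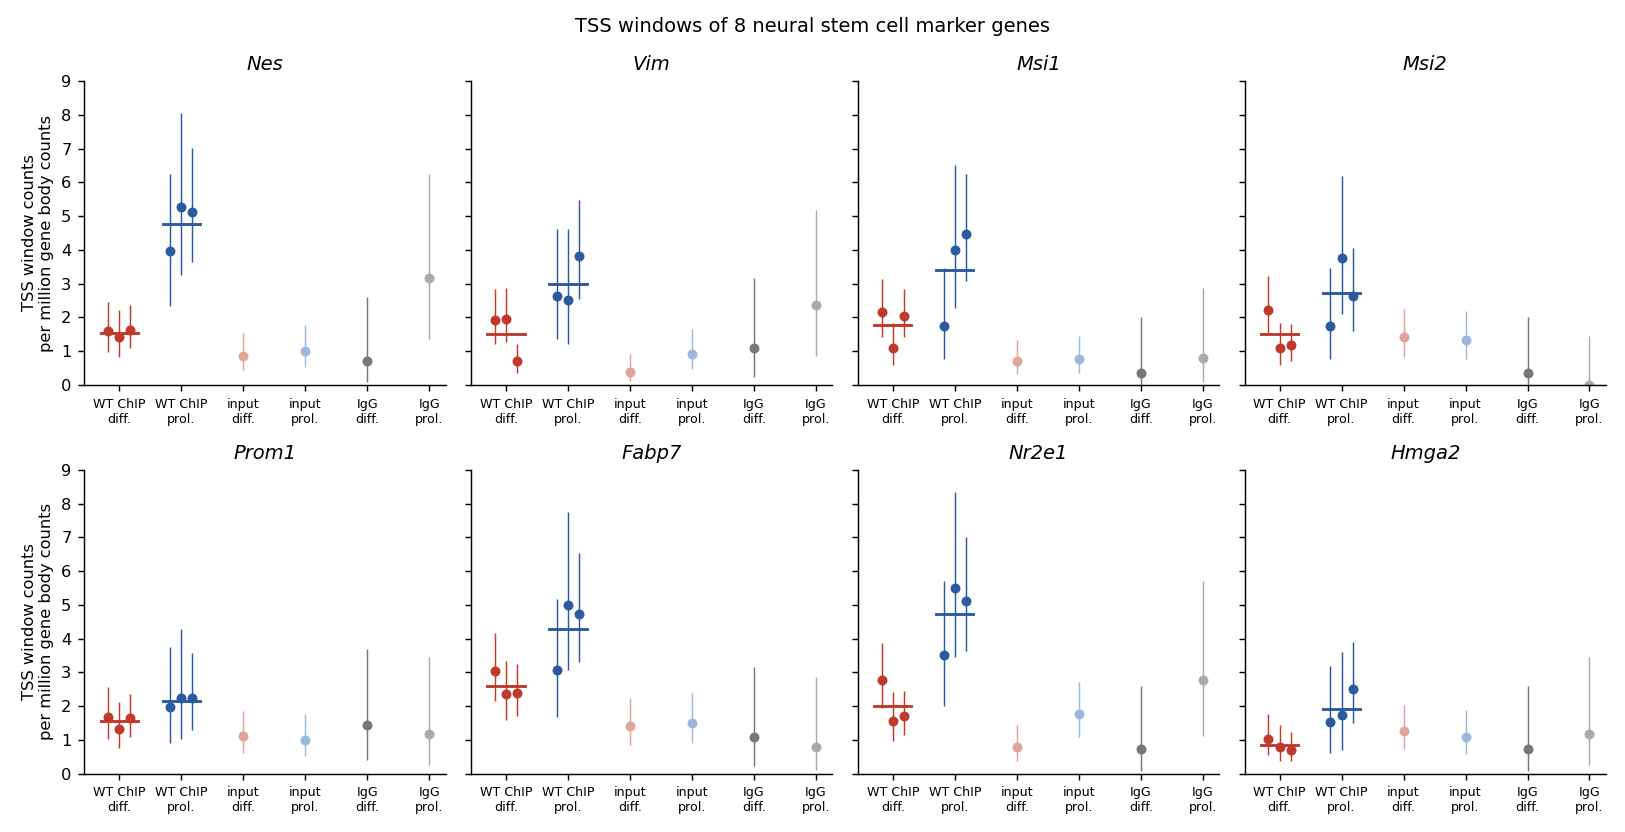
H3K14ac ChIP-seq counts in the TSS window of each of the 8 genes, in counts per 1000000 gene body counts (CPM, y axis), by group (x axis). Points are libraries with exact 95% Poisson intervals and bars are group means; Nes averaged 1.55 CPM in differentiating and 4.78 CPM in proliferating WT libraries.

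All windows have the same length, so the members can be ordered by level. In differentiating cells Fabp7 was highest at 2.59 ± 0.378 CPM (SD, n = 3), followed by Nr2e1, Msi1, Prom1, Nes, Vim and Msi2. Each of these overlapped its neighbour in the order. Hmga2 came last at 0.840 ± 0.174 CPM and did not overlap Msi2 at 1.50 ± 0.635 CPM. In proliferating cells Nes was highest at 4.78 ± 0.713 CPM, followed by Nr2e1 at 4.72 ± 1.05 CPM, Fabp7 at 4.27 ± 1.04 CPM, Msi1, Vim, Msi2, Prom1 and Hmga2 at 1.93 ± 0.502 CPM (SD, n = 3 each). Here every gene overlapped the next one, so the order between neighbours is not resolved. Nes held the fifth place in differentiating cells and the first in proliferating cells. The 8 windows together held 13.3 ± 2.68 CPM in differentiating and 27.0 ± 5.83 CPM in proliferating libraries, against 7.96 and 9.43 CPM in the differentiating and proliferating inputs and 6.49 and 12.3 CPM in the IgG libraries of the same stages.

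Whether the windows of these genes carried more H3K14ac signal than chromatin at large was addressed by WT ChIP against input. In the edgeR quasi-likelihood test over both stages, with a stage term, gene body totals as library sizes and Benjamini-Hochberg adjustment over 21557 windows, 5 of the 8 members passed with more signal in WT ChIP. Of all windows tested, 11.6% were called higher and 0.881% lower. The members' median log2 ratio was 1.28 and that of all windows 0.25.

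Vim was 1.78 log2 units above input (SE 0.40, adjusted p = 0.00116 by edgeR) and Nes 1.60 (SE 0.41, adjusted p = 0.00433), so both filament genes passed. Of the Musashi genes Msi1 passed at 1.77 (SE 0.42, adjusted p = 0.00164 by edgeR), while Msi2 stood at 0.50 (SE 0.36, adjusted p = 0.376). Of the surface and carrier genes Fabp7 passed at 1.17 (SE 0.40, adjusted p = 0.0314 by edgeR), while Prom1 stood at 0.77 (SE 0.36, adjusted p = 0.138). Of the nuclear factors Nr2e1 passed at 1.38 (SE 0.40, adjusted p = 0.0118 by edgeR), while Hmga2 stood at 0.14 (SE 0.35, adjusted p = 0.843). Each pair other than the filament genes thus had 1 member past the threshold and 1 that missed it, and the difference within a pair was not tested. With trimmed-mean (TMM) or median-ratio scaling 4 of 8 passed, Fabp7 being lost; the median of all windows moved to -0.02 and -0.01, and with TMM 1397 windows were called higher and 648 lower, against 2507 and 190 with gene body totals. Fabp7 also missed without differentiating replicate 1 or proliferating replicate 2 or 3 (adjusted p = 0.0539 to 0.0843 by edgeR). DESeq2 called 5 of 8. Without the proliferating input the fit rests on the differentiating stage, and 0 of 8 passed by edgeR.

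Taken by stage, members passed over input in proliferating cells. There edgeR called 5 of 8 members higher, beside 17.7% of all windows: Nes at 2.24 (SE 0.47, adjusted p = 0.000152), Msi1 at 2.21 (SE 0.51, adjusted p = 0.000506), Vim at 1.74 (SE 0.47, adjusted p = 0.00323), Fabp7 at 1.50 (SE 0.47, adjusted p = 0.0119) and Nr2e1 at 1.42 (SE 0.44, adjusted p = 0.0113). Prom1 (1.09), Msi2 (0.98) and Hmga2 (0.88) did not pass. TMM or median-ratio scaling left Nes and Msi1, DESeq2 left Nes, and leaving out proliferating WT replicate 3 left 2 of 8. In differentiating cells edgeR called 0 of 8 members, beside 0.0835% of all windows called higher; 3 of 8 had an unadjusted p under 0.05 and DESeq2 called 0. The values there ran from 1.85 for Vim (SE 0.59, adjusted p = 0.216 by edgeR) to -0.60 for Hmga2 (adjusted p = 0.719).

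The difference between the stages in signal over input was tested as an interaction, with 1 input library per stage. EdgeR called 0 of 8 members lower in differentiating cells, beside 0.0278% of all windows; 1 of 8 had an unadjusted p under 0.05 and DESeq2 called 0. Hmga2 (-1.48, SE 0.70, adjusted p = 0.434 by edgeR) and Nes (-1.40, SE 0.76, adjusted p = 0.509) had the largest differences, and Vim (0.11) and Nr2e1 (-0.09) the smallest.

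Pooled counts give these ratios without a model. Relative to input, the Nes share of counts was 1.80 times (95% exact interval 0.941 to 3.77) in differentiating and 4.78 times (2.59 to 9.64) in proliferating cells. For Msi1 the ratios were 2.53 (1.26 to 5.74) in differentiating and 4.74 (2.33 to 10.9) in proliferating cells. For Vim they were 3.65 (1.48 to 11.6) in differentiating and 3.41 (1.75 to 7.25) in proliferating cells, and the differentiating value divides by an input count of 5. Vim and Nr2e1 had similar ratios at both stages, and the wide intervals allow a difference in either direction.

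For Nr2e1 the ratio to input was 2.51 (1.30 to 5.43) in differentiating and 2.70 (1.65 to 4.60) in proliferating cells. For Fabp7 it was 1.81 (1.09 to 3.17) in differentiating and 2.86 (1.68 to 5.10) in proliferating cells. For Hmga2 it was 0.655 (0.353 to 1.27) in differentiating and 1.87 (0.956 to 3.86) in proliferating cells, and both intervals include 1. Prom1 stood at 1.41 in differentiating and 2.14 in proliferating cells and Msi2 at 1.03 in differentiating and 1.98 in proliferating cells, with intervals that included 1 in differentiating cells only. The 8 windows summed to 1.66 times the input (1.34 to 2.07) in differentiating and 2.92 times (2.37 to 3.63) in proliferating cells, against 1.07 in differentiating and 1.42 in proliferating cells for all windows. Per library, the sum stood at 2.06, 1.45 and 1.51 times the input in differentiating and 2.15, 3.19 and 3.24 times in proliferating cells. Proliferating replicate 1 was thus close to differentiating replicate 1.

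**Figure D2:**
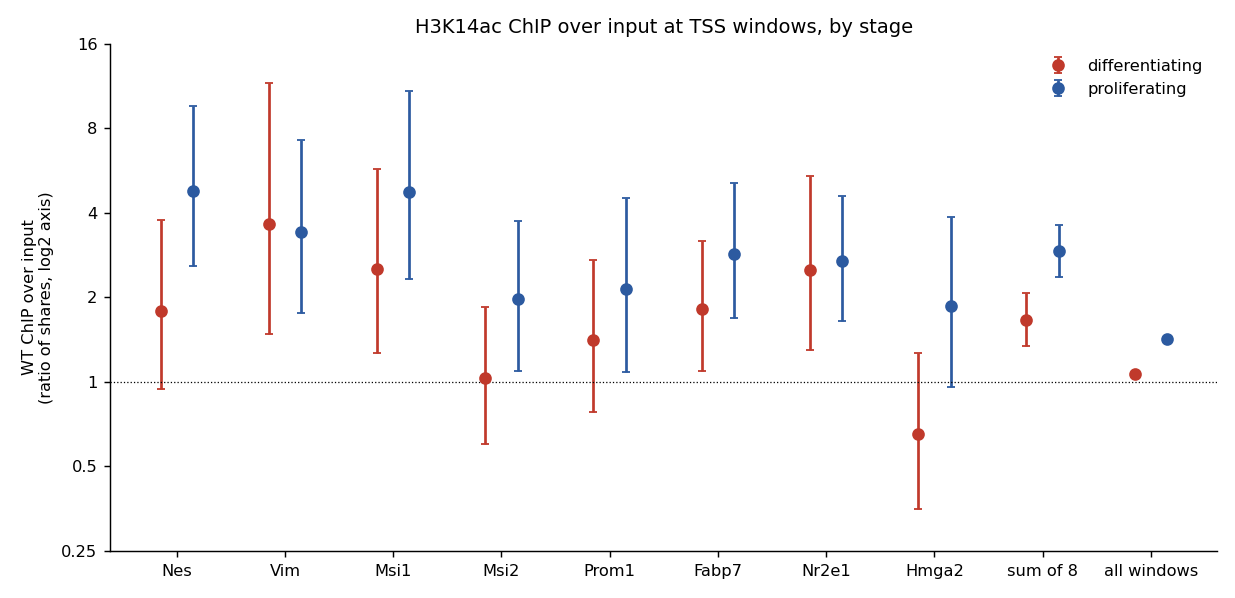
Share of counts in the TSS window in pooled WT ChIP libraries relative to the input of the same stage (log2 axis), for each gene, the sum of the 8 genes and all windows, with exact 95% intervals. The sum of the 8 lies at 1.66 in differentiating and 2.92 in proliferating cells, and all windows at 1.07 in differentiating and 1.42 in proliferating cells.

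The signal over input varied with base composition across all genes. Among the 2747 genes with at least 30 CG dinucleotides in the promoter table's 300 bases, pooled windows held 1.26 times the input share in differentiating and 2.21 times in proliferating cells. Among the 5363 genes with at most 4 they held 0.982 times in differentiating and 1.04 times in proliferating cells. Nes and Nr2e1 lie in the class of 15 to 19 CG dinucleotides, with 1.09 times the input in differentiating and 1.62 times in proliferating cells for its 2034 genes. Vim, Prom1 and Hmga2 lie in the class of 10 to 14, with 1.05 times in differentiating and 1.45 times in proliferating cells for its 1822 genes. Fabp7 lies in the class of 5 to 9, with 0.954 times in differentiating and 1.14 times in proliferating cells for its 2658 genes. Msi2, in the class richest in CG, had 1.03 times the input in differentiating and 1.98 times in proliferating cells, both below its class. Nes, Nr2e1, Vim, Prom1 and Fabp7 lay above their classes at both stages, and Hmga2 lay below its class in differentiating cells and above it in proliferating cells. This is a description of pooled counts.

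The non-specific pull-down gave a different order. In edgeR's test of WT ChIP over IgG 2 of the 7 members tested were higher, beside 5.13% of 13158 windows; Hmga2 had too few counts to be tested. Msi1 was 2.18 log2 units above IgG (SE 0.71, adjusted p = 0.0466 by edgeR), and Msi2 passed with an adjusted p of 0.0221 over IgG counts of 1 and 0. For Msi2 the share was 4.05 times IgG in differentiating cells (0.701 to 163), and at least 2.24-fold higher than the 3-count floor of the single IgG library in proliferating cells. Fabp7 (1.82, SE 0.61, adjusted p = 0.0542 by edgeR) just missed, and Nr2e1 (0.97), Nes (0.73), Prom1 (0.46) and Vim (0.40) did not pass. Both calls rest on very few IgG counts: DESeq2, TMM and median-ratio scaling each called 0 of 7. Neither call held in edgeR without the proliferating IgG library. Without the differentiating IgG library or proliferating WT replicate 2 or 3 the Msi1 call was lost (adjusted p = 0.0724 to 0.135 by edgeR), and without differentiating WT replicate 2 or 3 Fabp7 also passed (adjusted p = 0.0383 and 0.0493).

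The IgG library of proliferating cells held 8 counts at Nes (3.17 CPM, 1.37 to 6.24), 7 at Nr2e1 (2.77 CPM, 1.11 to 5.71) and 6 at Vim (2.38 CPM, 0.872 to 5.17), and 0 to 3 at each of the other 5 windows. The pooled proliferating WT share was 1.53 times IgG at Nes (0.737 to 3.66), 1.72 times at Nr2e1 and 1.33 times at Vim. At Fabp7 it was 5.48 times (1.46 to 46.1) and at Msi1 4.54 times (1.20 to 38.4). The share of counts at the 8 windows in IgG, relative to input, was 0.816 in differentiating and 1.30 in proliferating cells. With 1 IgG library per stage, the part of non-specific pull-down in the Nes, Nr2e1 and Vim signal was not tested. Within stages edgeR called 1 of 7 members over IgG in proliferating cells (Msi2; background 4.33%) and 0 of 7 in differentiating cells (background 0%); of these 7, 1 had an unadjusted p under 0.05 in differentiating cells, and DESeq2 called 0 at either stage. The interaction between stage and IgG gave 0 of 7 lower (background 0%), 0 at an unadjusted p under 0.05 and 0 by DESeq2. Beyond IgG the stage difference at Nes was 0.49 (SE 1.20, adjusted p = 0.970 by edgeR), opposite in sign to the -1.40 beyond input, and Nr2e1 (0.68), Msi1 (0.12) and Vim (0.04) were also above 0. Fabp7 (-1.18) and Prom1 (-0.75) were below 0. These values rest on 1 to 8 IgG counts per window and library. The value of Msi2, the other member tested, is left out, as its IgG windows held 1 and 0 counts.

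The stage comparison asks how H3K14ac at these genes differs between differentiating and proliferating cells. Nes was the one member called by edgeR with TMM scaling over the 6 WT libraries, and it fell. Of 19477 windows tested 4.3% were called lower and 2.17% higher, and 1 of the 8 members was called lower. Scaled this way, Nes had 1.72, 1.80 and 2.01 CPM in differentiating libraries, against 3.36, 4.42 and 4.23 CPM in proliferating libraries. The highest differentiating library lay well below the lowest proliferating one. The log2 change was -1.11 (SE 0.28, adjusted p = 0.00552 by edgeR), and 1.17% of windows had a lower value. The direction was the same under all alternatives run, and the adjusted p went up to 0.0783 under DESeq2 and to 0.0745 without proliferating replicate 3, where the call was lost.

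The other filament gene, Vim, had -0.60 (SE 0.30, adjusted p = 0.207 by edgeR). Its scaled levels of 2.07, 2.50 and 0.863 CPM in differentiating libraries overlapped the 2.24, 2.11 and 3.14 CPM in proliferating libraries. Nr2e1 had -0.74 (SE 0.27, adjusted p = 0.0707 by edgeR), with 3.01, 2.00 and 2.09 CPM in differentiating libraries, against 2.99, 4.63 and 4.23 CPM in proliferating libraries. The first replicates of both stages were nearly equal for Nr2e1, and without either of them its adjusted p passed (0.0429 without the differentiating and 0.0306 without the proliferating one). Hmga2 had -0.77 (SE 0.38, adjusted p = 0.198 by edgeR), with 1.12, 1.00 and 0.863 CPM in differentiating libraries, against 1.31, 1.47 and 2.06 CPM in proliferating libraries. Hmga2 and Nes were the members whose scaled groups did not overlap, 2 of 8 beside 13.1% of all windows with every differentiating library lower.

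Msi1 (-0.48, SE 0.28, adjusted p = 0.302 by edgeR), Msi2 (-0.35, SE 0.30, adjusted p = 0.516) and Fabp7 (-0.23, SE 0.27, adjusted p = 0.639) had negative values that did not pass. Prom1 had 0.04 (SE 0.32, adjusted p = 0.962 by edgeR), with means of 1.84 ± 0.159 CPM in differentiating and 1.81 ± 0.111 CPM in proliferating libraries (SD, n = 3 each). The 95% interval of the Prom1 difference, -0.58 to 0.65, leaves room for changes in both directions. The members' median was -0.54, beside 0.04 over all windows, and 4 of 8 had an unadjusted p under 0.05.

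The scaling between libraries decides how many members passed. With gene body totals in place of TMM, edgeR called 6 of 8 lower, beside 25.7% of all windows, and the median of all windows moved to -0.47. Nes then had -1.62 (adjusted p = 1.4e-05 by edgeR), Hmga2 -1.28, Nr2e1 -1.24, Vim -1.09, Msi1 -0.98 and Msi2 -0.85, while Fabp7 (-0.74, adjusted p = 0.0569) and Prom1 (-0.48, adjusted p = 0.312) missed. Relative to the shift of all windows, these values lie close to those with TMM. DESeq2 called 0 of 8 members.

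**Figure D3:**
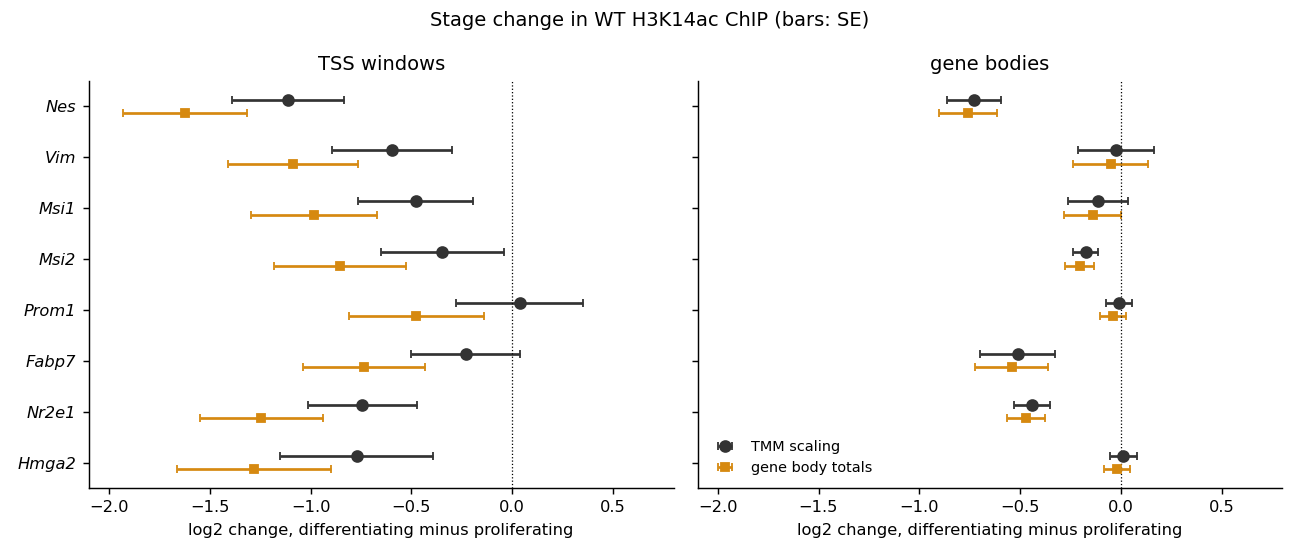
Change in H3K14ac counts between differentiating and proliferating WT libraries (log2, ± SE) for the 8 genes, in TSS windows (left) and gene bodies (right), with TMM scaling (circles) and gene body totals (squares). In TSS windows Nes lies lowest at -1.11 with TMM and -1.62 with gene body totals, and Prom1 lies near 0 with TMM.

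Over whole gene bodies edgeR called 0 of 8 members between stages, beside 0.126% of 24564 genes called lower and 0.0366% higher; 4 of 8 had an unadjusted p under 0.05, and DESeq2 called 1, Nes (adjusted p = 0.0162). Nes gene body levels were 11.7, 9.08 and 9.72 CPM in differentiating libraries, against 19.8, 17.5 and 15.0 CPM in proliferating libraries and 11.2 and 9.52 CPM in the differentiating and proliferating inputs. Nes had -0.73 (SE 0.13, adjusted p = 0.0767 by edgeR), and -0.53 (adjusted p = 0.392) once its TSS window was taken out. Nr2e1 had -0.44 (SE 0.09, adjusted p = 0.116 by edgeR), Fabp7 -0.51 (SE 0.19, adjusted p = 0.362) and Msi2 -0.17 (SE 0.06, adjusted p = 0.346). Msi1 (-0.11), Vim (-0.03), Prom1 (-0.01) and Hmga2 (0.01) stood near 0. With TMM scaling, Nes, Msi2 and Nr2e1 had every differentiating library below every proliferating one in gene bodies, 3 of 8 beside 9.49% of all genes. The long genes Msi2, Prom1 and Hmga2 collect most of their counts far from the start, so their gene body values say little about the promoter.

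Within a library, the share of a gene's counts that fell in its TSS window needs no scaling between libraries. This share was lower in differentiating cells for all 8 members, under every alternative run. For Nes it was 15.3% ± 1.64 in differentiating and 28.1% ± 7.30 in proliferating libraries (SD, n = 3 each), against 7.75% and 10.6% in the differentiating and proliferating inputs. For Vim it was 15.6% ± 6.27 in differentiating and 31.5% ± 7.02 in proliferating libraries, against 5.0% and 10.4% in the differentiating and proliferating inputs. For Fabp7, where the window covers a large part of the gene, it was 43.5% ± 6.34 in differentiating and 49.0% ± 2.39 in proliferating libraries, against 43.9% and 36.0% in the differentiating and proliferating inputs. Fabp7 in differentiating cells thus had a share like that of its input.

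Msi1 held 9.15% ± 2.72 of its counts in the window in differentiating and 15.7% ± 4.37 in proliferating libraries, against 2.91% and 2.82% in the differentiating and proliferating inputs. Nr2e1 held 9.39% ± 2.74 in differentiating and 16.1% ± 4.22 in proliferating libraries (SD, n = 3 each). The long genes held small shares: Prom1 1.43%, Hmga2 0.781% and Msi2 0.375% in differentiating libraries, against 1.94%, 1.76% and 0.609% for the same genes in proliferating libraries. Nes, Vim, Prom1 and Hmga2 had groups that did not overlap (exact two-sided permutation p = 0.1, the smallest that 3 against 3 libraries allow; 0.2 adjusted over the 8 members). The same separation held for 35.3% of 17170 genes, and 80.3% of those genes had a lower mean share in differentiating cells, with a median difference of -2.10 percentage points.

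Per kilobase, the window can be set against the rest of the same gene. At Nes the window held 1.32, 1.54 and 1.70 times the count density of the rest in differentiating libraries, against 2.09, 3.58 and 4.35 times in proliferating libraries and 0.702 and 0.993 times in the differentiating and proliferating inputs. At Vim the ratios were 1.60, 1.96 and 0.705 in differentiating libraries, against 4.51, 2.35 and 3.76 in proliferating libraries and 0.396 and 0.870 in the differentiating and proliferating inputs. At Msi1, with the gene length of the count table, they were 2.71, 1.51 and 2.93 in differentiating libraries, against 2.90, 4.70 and 5.71 in proliferating libraries and 0.706 and 0.683 in the differentiating and proliferating inputs. In both inputs these 3 start sites were covered less densely than the rest of their genes, and in the WT libraries more densely, except Vim in differentiating replicate 3.

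At Nr2e1 the window held 2.96, 1.73 and 1.76 times the density of the rest in differentiating libraries, against 2.75, 5.21 and 4.06 times in proliferating libraries and 0.799 and 1.49 times in the differentiating and proliferating inputs. At Hmga2 it held 1.13, 0.821 and 0.760 times in differentiating libraries, against 1.67, 1.86 and 2.65 times in proliferating libraries and 1.26 and 1.01 times in the differentiating and proliferating inputs. Hmga2 in differentiating cells showed no denser start than its input. Prom1 held 1.31 to 1.70 times in differentiating and 1.95 to 2.25 times in proliferating libraries, against 0.996 and 0.896 times in the differentiating and proliferating inputs. Msi2 (1.12 to 1.98 in differentiating and 1.37 to 3.32 in proliferating libraries) and Fabp7 (1.60 to 2.60 in differentiating and 2.21 to 2.68 in proliferating libraries) overlapped between stages, and the differentiating and proliferating inputs stood at 1.27 and 1.19 for Msi2 and at 1.98 and 1.42 for Fabp7.

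Over the whole gene, edgeR called Fabp7 higher and Msi1 lower in WT ChIP than in input, beside 8.43% of 24848 genes called higher and 21.3% lower. Fabp7 gene body levels were 5.98, 5.71 and 6.21 CPM in differentiating and 6.60, 10.3 and 9.20 CPM in proliferating libraries, against 3.23 and 4.21 CPM in the differentiating and proliferating inputs, a log2 ratio of 0.97 (SE 0.18, adjusted p = 0.00322 by edgeR). All 6 WT libraries lay above both inputs. Outside its window, Fabp7 held 1.89 times the input share in differentiating and 1.63 times in proliferating cells, so its signal was not limited to the first kilobase.

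Msi1 gene body levels were 20.8, 18.2 and 18.5 CPM in differentiating and 16.1, 24.0 and 22.9 CPM in proliferating libraries, against 24.4 and 26.9 CPM in the differentiating and proliferating inputs, a log2 ratio of -0.35 (SE 0.12, adjusted p = 0.0423 by edgeR). Every WT library lay below both inputs, while the Msi1 window was above input. The call for Msi1 was lost with TMM scaling (adjusted p = 0.196 by edgeR) and with median-ratio scaling (adjusted p = 0.264). It was also lost without either input, and without differentiating replicate 2 or proliferating replicate 3 (adjusted p = 0.0572 to 0.257 by edgeR over these 4 fits). The call for Fabp7 was lost without the proliferating input (adjusted p = 0.0902 by edgeR). Without proliferating WT replicate 1, edgeR also called Prom1 (-0.14, adjusted p = 0.0419) and Hmga2 (-0.14, adjusted p = 0.0336) lower, and without the differentiating input it also called Nes higher (0.85, adjusted p = 0.0335). Outside the window, Nes held 0.829 times the input share in differentiating and 1.43 times in proliferating cells, and the rest of Vim, Msi2, Prom1, Nr2e1 and Hmga2 stood between 0.851 and 1.06 times. Over IgG, edgeR called 0 of 8 gene bodies higher, beside 0.54% of all genes; 4 of 8 had an unadjusted p under 0.05 and DESeq2 called 0.

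The Hbo1 null libraries were too shallow to resolve single windows. Summed over the 8 windows they held 2 counts, 1 at Msi1 and 1 at Prom1, both in proliferating cells. At the WT share, 5.99 counts were expected, a ratio of 0.334 (95% exact Poisson interval 0.040 to 1.21), which includes 1. Over all windows the null counts were 0.794 times those at the WT share (0.779 to 0.808). EdgeR called 0 of 7 member windows lower in null cells, beside 0% of all windows, with 0 of 7 at an unadjusted p under 0.05 and 0 by DESeq2.

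Gene bodies gave more null counts. The 8 genes held 215 (174 in differentiating and 41 in proliferating null cells), 0.813 times those at the WT share (0.708 to 0.929). Msi2, the longest member, supplied 110 of them and stood at 0.712 times the WT share (0.585 to 0.859). Msi1 stood at 2.14 times (1.22 to 3.47) with 16 counts, and Hmga2 at 1.01 times with 42 counts. These intervals cover counting error in 1 library per stage and not the spread between cultures. Summed over the 8 gene bodies, the differentiating and proliferating null libraries held 543 and 640 CPM, and the IgG libraries of these stages 582 and 672 CPM. WT libraries held 654 to 716 CPM in differentiating and 740 to 785 CPM in proliferating cells. EdgeR called 0 of 8 gene bodies lower, beside 0% of all genes; 2 of 8 had an unadjusted p under 0.05 and DESeq2 called 0.

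Other genes of the same cells were counted from lists written by hand, with earlier results of these data known. Of 20 further neural stem and progenitor genes, all tested, edgeR with TMM scaling called 3 lower and 0 higher in differentiating cells, beside 4.3% of all windows called lower: Lhx2, Emx2 and Notch1. Their median log2 change was -0.53, beside 0.04 over all windows. Lhx2, a LIM homeobox factor of the forebrain, had 1.31 ± 0.180 CPM in differentiating and 3.03 ± 0.312 CPM in proliferating libraries (SD, n = 3 each), a log2 change of -1.22 (adjusted p = 0.00476 by edgeR). Emx2, a homeobox factor of the dorsal telencephalon, had -0.94 (adjusted p = 0.0234 by edgeR), and Notch1, the receptor that holds radial glia in the progenitor state, had -0.85 (adjusted p = 0.0315). With gene body totals 15 of the 20 were called lower, beside 25.7% of all windows on that scale, with the replicate block 1, without proliferating replicate 3 none and by DESeq2 none. Leaving out 1 WT library at a time otherwise gave 1 to 3.

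Among 15 neuronal genes, 9 of which were tested, edgeR called 1 higher in differentiating cells and 0 lower, beside 2.17% of all windows called higher and 4.3% lower. Their median log2 change was -0.14, beside 0.04 over all windows. The gene called was Syt1, a calcium sensor of synaptic vesicles, with 1.58 ± 0.200 CPM in differentiating and 0.400 ± 0.173 CPM in proliferating libraries (SD, n = 3 each), a log2 change of 2.10 (adjusted p = 0.00489 by edgeR). Its mean count of 10.7 was just over the minimum of 10. The proliferating level lay near the 3-count floor (0.394 to 0.751 CPM), so Syt1 reached the test through the differentiating libraries. By gene body totals, the differentiating and proliferating inputs held 1.18 and 1.43 CPM at Syt1. Among 19 relatives of the members by protein family, 14 of which were tested, 1 was called higher and 1 lower, beside the same shares of all windows. Gfap, the astrocyte filament protein related to vimentin, had 2.50 ± 0.168 CPM in differentiating and 0.857 ± 0.296 CPM in proliferating libraries, a log2 change of 1.42 (adjusted p = 0.0055 by edgeR). It was also the only called gene of the astrocyte list of 5, whose median change was 0.11. In that list 1 gene had an unadjusted p under 0.05 by edgeR in the lower direction. Slc1a2, of the same list, had 1.55 ± 0.627 CPM in differentiating and 2.53 ± 0.444 CPM in proliferating libraries, and these groups overlapped. Hnrnpab, an RNA-binding protein like the Musashi proteins, had -0.83 (adjusted p = 0.0381 by edgeR). Gfap and Nes, both filament genes of the glial lineage, thus had changes of opposite sign with TMM scaling. The proliferating level of Gfap lay little above the 3-count floor, so Gfap too reached the test through the differentiating libraries. By gene body totals, the differentiating and proliferating inputs held 1.18 and 1.35 CPM at Gfap.

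In the list of 8 genes around let-7 and Hmga2, 5 were tested and 1 was called lower, beside 4.3% of all windows. This was Igf2bp3, an RNA-binding protein of foetal tissue, at -1.14 (adjusted p = 0.0070 by edgeR). It had 1.49 ± 0.276 CPM in differentiating and 3.27 ± 0.731 CPM in proliferating libraries (SD, n = 3 each). Leaving out 1 WT library at a time, Gfap passed in 6 of 6 fits, Igf2bp3 in 4, Syt1 in 3 of the 4 that tested it and Hnrnpab in 1 of 6. DESeq2 called none of these genes, and with gene body totals Gfap missed (log2 change 0.91, adjusted p = 0.058 by edgeR) while Syt1 passed at 1.60. Of the 21 markers of oligodendrocytes, microglia, endothelial cells and mesenchymal or meningeal cells, 15 were tested between stages and edgeR called 0; 1 had an unadjusted p under 0.05 and DESeq2 called 0. Their summed windows ranged over 7.32 to 8.92, 4.57 to 6.45, 5.33 to 7.73 and 4.38 to 5.95 CPM in differentiating libraries and over 8.01 to 9.03, 5.12 to 7.04, 6.83 to 7.70 and 5.51 to 6.70 CPM in proliferating libraries. The 20 neural stem genes summed to 29.6 to 38.2 CPM in differentiating and 60.1 to 71.9 CPM in proliferating libraries. For them the differentiating and proliferating inputs held 22.6 and 22.9 CPM. The 15 neuronal genes summed to 14.3 to 18.0 CPM in differentiating and 18.9 to 23.3 CPM in proliferating libraries. For these the differentiating and proliferating inputs held 15.3 and 16.3 CPM, so the differentiating sums lay around the input. No marker of any list was at 0 over a WT group, but none was at 0 in either input. Counts above 0 in these windows therefore do not show that a cell type was present. For oligodendrocytes, microglia, endothelial and mesenchymal or meningeal cells, the differentiating input held 6.15, 5.12, 6.23 and 5.75 CPM. The proliferating input held 6.99, 7.16, 6.91 and 5.14 CPM for the same lists. The part of other cell types in the members' values was not tested.

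Over input, edgeR called 13 of the 20 neural stem genes higher, beside the 11.6% of all windows, and their median of 1.22 log2 units was near the members' 1.28. Lhx2 stood at 1.70 (adjusted p = 0.0017 by edgeR) and Sox1, a transcription factor of neural progenitors, at 1.69 (adjusted p = 0.00183). Of the 10 neuronal genes tested 1 was called higher, Map2, a microtubule protein of dendrites, at 1.62 (adjusted p = 0.00288 by edgeR), and their median was 0.01. Of the 17 family relatives tested 4 were called higher, led by the orphan receptor Nr2f1 (1.82, adjusted p = 0.0013 by edgeR) and the RNA-binding Dazap1 (1.24, adjusted p = 0.0216). In the let-7 list Dicer1, which cuts microRNA precursors, was higher at 1.21 (adjusted p = 0.0240 by edgeR) and Lin28b, which blocks let-7 processing, lower at -0.94 (adjusted p = 0.0410). In the astrocyte list Slc1a2, a glutamate transporter, was higher at 1.41 (adjusted p = 0.00647 by edgeR). DESeq2 did not call Dazap1 (adjusted p = 0.0598), Dicer1 (adjusted p = 0.0716), Slc1a2 (adjusted p = 0.0697) or Lin28b (adjusted p = 0.202). With TMM scaling Dazap1 and Dicer1 missed (adjusted p = 0.0570 and 0.0609 by edgeR), as they did with median-ratio scaling (adjusted p = 0.0543 and 0.0572) and without differentiating replicate 1 (adjusted p = 0.0611 and 0.0548). Lin28b missed with no filter (adjusted p = 0.0540 by edgeR), without proliferating replicate 1 or 2 or differentiating replicate 2, and without either input (adjusted p = 0.0527 to 0.628 over these 5 fits). Without the proliferating input, 0 of the 20 neural stem genes passed by edgeR, and the other genes named here missed as well (adjusted p = 0.402 to 0.653).

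The members also varied together across libraries, as a description. Over the 10 libraries other than Hbo1 null, the 28 pairs of members had a median Pearson correlation of 0.76 in log2(CPM + 1), with 0.29 for Msi2 with Vim at the low end and 0.94 for Nes with Nr2e1 at the high end. These libraries share 2 stages and 3 kinds of material, so the points are not independent of group. Among 38 genes with a mean window count of at least 30, Nes was most like Tnrc18 (0.94) and Rbm39 (0.90), and Nr2e1 was most like the same 2 genes (0.95 and 0.94). Msi1 and Fabp7 were both most like Spry2 (0.96 and 0.98) and Chaserr (0.93 and 0.96). Vim was most like Rbm39 (0.86) and Tnrc18 (0.82), Msi2 like Spry2 and Hjurp (0.86 each), Prom1 like AW047730 (0.95) and Jun (0.93), and Hmga2 like Hjurp (0.84) and Rbm39 (0.73).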

How the data were processed

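The authors sequenced TruSeq DNA libraries on a NextSeq, per the labels. The deposited tables hold raw read counts per gene, not normalised, for TSS windows and for gene bodies, in 12 libraries. The reads were converted with bcl2fastq and counted with featureCounts on mm10, per the submitters' processing notes; the aligner, the versions and the treatment of reads that align to several places are not given in the sources used here. The 24 per-sample files equalled the table columns. Of 27095 gene IDs 25204 were matched to RefSeq symbols and 1891 were not. A window lies inside its gene body: in the 3565 genes that are no longer than 1000 bases, both tables held equal values.

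The quasi-likelihood test of edgeR 4.0.16 (R 4.3.3, two-sided) was run on every gene whose mean count reached 10, with Benjamini-Hochberg adjustment over these genes and a threshold of 0.05. The stage comparison used 6 WT libraries with TMM scaling. Control comparisons added 2 control libraries, and had a stage term or 1 coefficient per stage and kind, and gene body totals; single controls are taken to vary like WT libraries. Alternatives were other scalings, no filter, DESeq2 1.42.0, a replicate block, gene bodies without the window and leaving out each library. Shares were compared by exact permutation. Ratios of pooled counts have exact intervals. The code was tested on simulated data. Tables, sequences, ratios and figures used Python 3.11.15, pandas 2.3.3, scipy 1.17.1 and matplotlib 3.10.9.

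All 8 members are named, with the 2 genes most like each, up to 3 called genes per list between stages and 2 over input. The members and the 9 other gene lists were chosen with earlier results of these data known.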

Additional observations from a re-analysis of the deposited data

How the results depend on the processing

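Between stages, 1 of 8 member windows was called lower by edgeR, 6 with gene body totals, 0 by DESeq2 and 0 to 2 when each library was left out in turn; over gene bodies DESeq2 called 1 and edgeR 0. The replicate block gave 1 for windows and 0 for gene bodies. In their window deviations, same-numbered libraries of the 2 stages correlated at 0.34, 0.04 and 0.27, and differently numbered ones at -0.33 to 0.13. In gene bodies same-numbered libraries correlated at 0.093, 0.19 and -0.12, and differently numbered ones at -0.26 to 0.16. Whether replicate numbers pair libraries is not settled by these values. Over input, leaving out a library gave 0 to 5 of 8 windows higher, 0 to 2 gene bodies higher and 0 to 3 lower. In proliferating cells over input, TMM gave 2, median-ratio scaling 2, DESeq2 1 and leaving out a library 2 to 5. Over IgG, TMM, median-ratio scaling and DESeq2 gave 0, no filter 1 and leaving out a library 0 to 3; in proliferating cells these scalings, DESeq2 and no filter gave 0 and leaving out a library 0 to 1. Over all windows the stage test called 422 higher and 838 lower; the replicate block called 258 and 454, DESeq2 7 and 89, and gene body totals 64 and 4996. Over all genes the gene body stage test called 9 higher and 31 lower, and 18 and 20 with the block.

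Of 699 alternative member values 604 kept direction and call, and 38 changed sign, none of them past the threshold in either fit. Prom1 between stages had -0.48 with gene body totals, -0.067 with no filter and -0.057 to 0.10 when a library was left out. Hmga2 over input had -0.16 with TMM, -0.14 with median-ratio scaling and -0.60 to 0.88 when a library was left out. Over IgG, Vim had -0.24 and -0.27 and Prom1 -0.14 and -0.17 with TMM and median-ratio scaling. For gene bodies between stages, Hmga2 had -0.020 with gene body totals and -0.0094 without the window, Vim 0.24 without the window, and leaving out a library gave -0.21 to 0.16 for Vim, -0.036 to 0.016 for Prom1 and -0.024 to 0.031 for Hmga2. For gene bodies over input, Msi2 had 0.10 and 0.13 with TMM and median-ratio scaling, Prom1 0.0075 with median-ratio scaling, and leaving out a library gave -0.10 to 0.078 for Msi2 and -0.14 to 0.85 for Nes. In differentiating cells over input, Msi2 had -0.037 and -0.030, and -0.31 to 0.22 when a library was left out. Beyond input, Nr2e1 had 0.31 and 0.30, and -0.37 to 0.044 when a library was left out, and Vim -0.13 to 0.53. The cause of these changes was not tested. Counts of 7 to 41 per window limit single genes, and 1 control library per stage limits every control comparison.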
